A study of Rattus norvegicus with 743 samples.

Results

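Naproxen and nabumetone are non-steroidal anti-inflammatory drugs (NSAIDs) that carry the same methoxynaphthalene ring. Animals were chosen by the treatment label alone: 2 rats given naproxen at 400 mg/kg/day and 4 rats given nabumetone at 600 mg/kg/day, together 6 of the 680 animals (743 libraries) of a toxicogenomic series on rat liver. All were Sprague Dawley males dosed daily for 4 days with 0.5 percent methylcellulose in deionized water as vehicle and killed 24 hours after the last dose. Each drug was compared with the 4 vehicle males of its own study, batch number 3, which received the same vehicle for the same 4 days. Another NSAID, lumiracoxib, had been given at the dose and duration of naproxen (400 mg/kg/day, 4 days) to 3 males of another study with 4 vehicle males of their own, and served as the matched-dose comparison. No animal entered more than 1 of these comparisons, and each had 1 library. Because the doses of naproxen and nabumetone differed, the values of the 2 drugs stand side by side and their difference was not tested.

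NSAIDs block the cyclooxygenases, the enzymes encoded by Ptgs1 and Ptgs2 that turn arachidonic acid into the precursor of prostaglandins and thromboxane. Naproxen is an arylpropionic acid that acts as it is given. Nabumetone is a ketone without an acid group and is known in humans as a prodrug that the liver converts into an arylacetic acid, its active form. Both are cleared through the liver by P450 enzymes and by conjugation of the acid, and high exposure to drugs of this class is known to injure the gut wall. When tissue injury or bacterial products reach the circulation, cytokines of the interleukin 6 and interleukin 1 type act on hepatocytes through STAT3, NF-kappaB and C/EBP factors. Hepatocytes then switch to making acute-phase proteins, which in the rat include alpha 2-macroglobulin (A2m), while albumin and many metabolic enzymes are made less.

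Library totals ran from 15.53 to 21.68 M counts in the naproxen study and from 16.83 to 23.56 M in the nabumetone study, and RNA integrity numbers (RIN) from 8 to 9 apart from 1 naproxen vehicle animal at 6.7. The 10 most abundant genes took 29.7% and 30.6% of counts in the naproxen animals and 22.5% to 25.9% in their vehicle animals. In nabumetone replicate 1 that share was 26.1%, against 30.6% to 32.4% in replicates 2 to 4 and 23.3% to 26.1% in the vehicle animals. Nabumetone replicate 1 stood apart in its response as well: 209 genes lay at least 1 log2 unit from the vehicle mean, against 1283, 1584 and 1221 in replicates 2, 3 and 4 and 138 to 256 when each vehicle animal was set against the others. It was kept in the comparison as designed, and many nabumetone results are also given without it. Both naproxen libraries and 2 of their vehicle libraries were sequenced on 1 flow cell and the other 2 vehicle libraries on another, so naproxen values were also computed within that flow cell. The nabumetone animals were spread over 3 flow cells, of which 1 also held 2 vehicle animals, and no within-flow-cell value could be had. Nabumetone replicate 1 was alone among the animals of its comparison on its flow cell, replicate 2 shared one with 2 vehicle animals, and replicates 3 and 4 shared another, so replicate 1 and its flow cell cannot be told apart. Nothing in the labels says whether animals were pooled or housed together, and p-values measure the spread between these animals only.

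Naproxen changed 4892 of 13143 genes tested (37.2%), 2476 higher (18.8%) and 2416 lower (18.4%), at an adjusted p under 0.05 in edgeR's quasi-likelihood test with Benjamini-Hochberg adjustment, which is what called means throughout. Within 1 flow cell, with 2 animals against 2, 2896 of 13037 (22.2%) were called. Nabumetone changed 96 of 12802 genes (0.75%), 86 higher (0.672%) and 10 lower (0.0781%), with 3167 at an unadjusted p under 0.05. Without replicate 1 the count was 2922 of 13003 (22.5%), 1673 higher (12.9%) and 1249 lower (9.61%). Replicate 1 was singled out by its response, so the fit without it was read as 1 of 8 fits that each left out an animal. The other 7 gave far fewer calls: 15, 26 and 14 without nabumetone replicate 2, 3 or 4, and 6, 18, 6 and 8 without vehicle replicate 1, 2, 3 or 4. The count also depended on the test, with 1562 calls by DESeq2, 1340 in 1 fit of both drugs with both vehicle groups, 247 from the RefSeq gene table and 24 with RIN in the fit. Of the 41 genes called after nabumetone that are named in the text, 5 (AABR07040847.1, Abcg1, Nqo1, RT1-Bb and Trpm4) were called whichever animal was left out, and 36 were not called in at least 1 of those fits. Among the 96 calls, replicate 1 lay closer to the vehicle animals than replicates 2 to 4 in 83, inside their range in 13 and farther out in 0. The median log2 fold change over all genes tested was 0.0057 after naproxen, -0.0101 after nabumetone and -0.0227 without replicate 1, and list medians are to be read beside these. Counts of list members called are likewise to be read beside the shares over all genes given above.

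The changes that both drugs shared were led by acute-phase genes. Of 24 members tested, naproxen raised 20 and lowered 0 (median log2 fold change 2.74), and nabumetone raised 13 and lowered 0 (median 2.26). Without nabumetone replicate 1, 21 were called higher and 1 lower (median 2.48), the last being Hamp. Leaving out nabumetone replicate 2, 3 or 4 gave 4, 5 and 4 calls higher, and leaving out vehicle replicate 1, 2, 3 or 4 gave 0, 3, 0 and 1. Lcn2, which encodes the siderophore-binding protein lipocalin 2, stood at 8494 and 7738 CPM (counts scaled to library size) in the naproxen animals and at 1.28, 2.01, 2.02 and 2.27 CPM in their vehicle animals, so that naproxen raised it by 12.07 on the log2 scale, with an SE of 0.26 (adjusted p = 5.02e-07). Across nabumetone replicates 1 to 4 it read 286, 6356, 11956 and 4665 CPM against 2.5, 1.17, 1.64 and 1.49 CPM in the vehicle animals (11.74, SE 1.26, adjusted p = 0.00828). Every treated animal stood above every vehicle animal for this gene, and replicate 1 held the lowest treated value. Over the 7 fits that left out another animal its nabumetone value ran from 11.11 to 11.98 and its adjusted p from 0.0126 to 0.0761.

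A2m, the protease inhibitor that marks the acute phase in rats, varied widely among the nabumetone animals. It read 20787 and 25144 CPM after naproxen against 14.4, 31.1, 34.5 and 48.8 CPM in the vehicle animals (log2 fold change 9.48, SE 0.50, adjusted p = 3.3e-05). Nabumetone replicates 1 to 4 read 193, 14315, 12059 and 4091 CPM against 14.7, 20.5, 23.7 and 9.88 CPM (8.80, SE 1.29, adjusted p = 0.032; without replicate 1 9.19, SE 0.60, adjusted p = 0.000187). The groups did not overlap in either study. Orm1, which encodes the plasma drug-binding protein alpha 1-acid glycoprotein, read 23437 and 20183 CPM after naproxen (vehicle 253, 320, 358 and 363 CPM) and 3851, 20562, 16860 and 14182 CPM after nabumetone (vehicle 259, 472, 241 and 475 CPM). Its log2 fold changes were 6.08 (SE 0.19, adjusted p = 1.69e-06) and 5.26 (SE 0.58, adjusted p = 0.00828). Kininogen (Kng1), the precursor of the kinin peptides, rose by 5.69 (SE 0.15) after naproxen and 5.39 (SE 0.55) after nabumetone on the log2 scale, from 505 to 701 CPM over the 8 vehicle animals. Reads of the near-identical rat T-kininogen genes may be counted with it.

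The other positive acute-phase proteins rose by smaller folds from higher levels. The haem scavenger hemopexin (Hpx) went from 4529 to 5972 CPM in vehicle animals to 51317 and 53992 CPM after naproxen, and to 16436, 41890, 46407 and 37655 CPM after nabumetone (vehicle 3802 to 5697 CPM). The log2 fold changes were 3.38 (SE 0.15, adjusted p = 8.05e-06) and 2.96 (SE 0.37, adjusted p = 0.0188). The fibrinogen chains Fga, Fgb and Fgg, which form the clot, rose by 3.12, 2.77 and 3.08 after naproxen and by 2.23, 1.98 and 2.28 after nabumetone. Haptoglobin (Hp), which binds free haemoglobin, rose by 2.31 and 2.29, and Lbp, the lipopolysaccharide-binding protein, by 3.60 and 3.69. Ceruloplasmin (Cp), a copper-carrying ferroxidase, rose by 1.64 after naproxen and 2.42 after nabumetone, and Itih4 by 1.26 and 1.84. Complement C3 did not pass in either comparison (0.46, SE 0.19, adjusted p = 0.0902, and 1.16, SE 0.24, adjusted p = 0.0579), and was called without nabumetone replicate 1 (1.27, adjusted p = 0.00298).

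**Figure D1:**
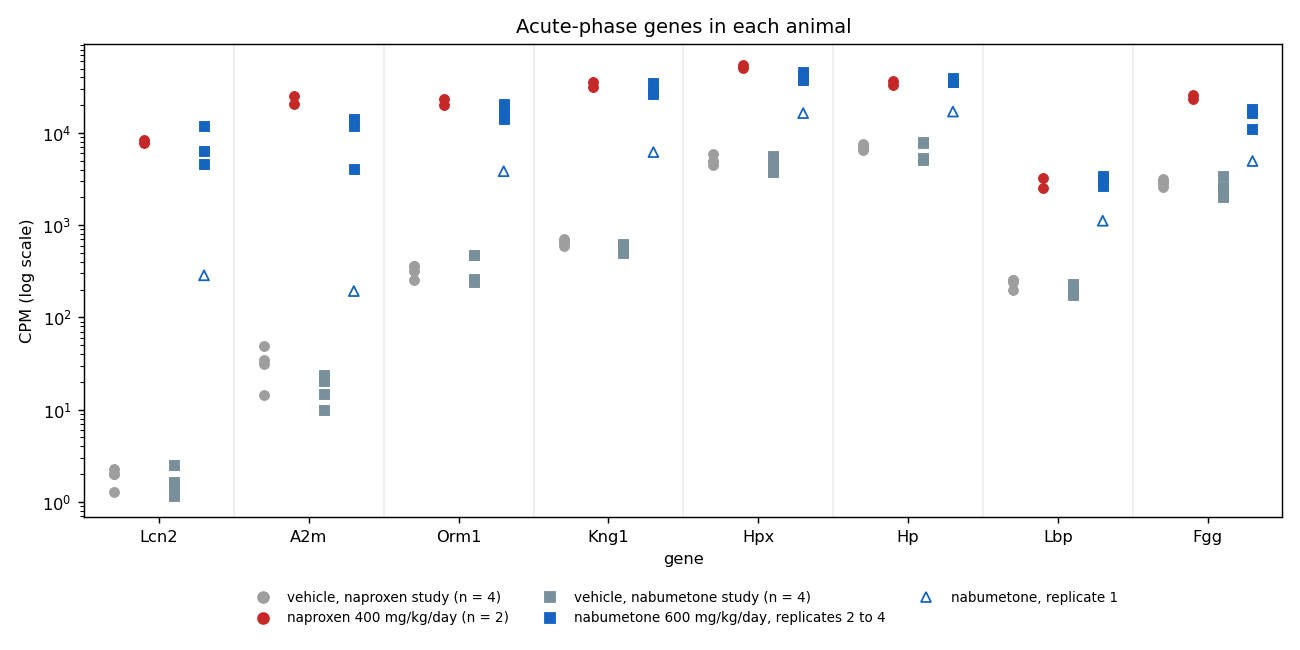
CPM on a log axis in each animal for 8 acute-phase genes: vehicle animals and treated animals of the naproxen study (circles) and of the nabumetone study (squares), with nabumetone replicate 1 as an open triangle. In every gene shown the treated animals lie above the vehicle animals of their study, and replicate 1 holds the lowest nabumetone value.

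The signalling side of the response moved less evenly. Stat3, the transcription factor activated by interleukin 6, read 627 and 524 CPM after naproxen against 73 to 98 CPM (2.71, SE 0.16, adjusted p = 2.09e-05). Nabumetone animals read 102, 488, 443 and 338 CPM against 70.6, 79.4, 130 and 104 CPM, which was not called (1.84, SE 0.44, adjusted p = 0.0716) until replicate 1, which lay among the vehicle animals, was left out (2.12, SE 0.24, adjusted p = 0.00128). The STAT3 inhibitor Socs3, the C/EBP factor Cebpd, the interleukin 1 receptor antagonist Il1rn and the metalloreductase Steap4 followed the same course: naproxen raised them by 2.38, 3.58, 3.93 and 4.90, and the nabumetone values were 1.68, 2.36, 2.47 and 3.20 with adjusted p from 0.0628 to 0.195, and from 0.000199 to 0.013 without replicate 1. The naproxen call of Socs3 ended without either naproxen animal (adjusted p = 0.103 and 0.07). Cebpb, another C/EBP factor, was not called in any of these 3 fits (0.61, -0.42 and -0.65). Osmr, the receptor of the interleukin 6 relative oncostatin M, was called in both: 45.8 and 50.6 CPM after naproxen against 1.43 to 1.6 CPM (4.97, SE 0.14, adjusted p = 1.13e-06), and 10.7, 20.1, 48.7 and 22.1 CPM after nabumetone against 2.64, 0.919, 3.78 and 1.75 CPM (3.48, SE 0.55, adjusted p = 0.0426).

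Promoters are printed for 4 of the genes called higher by both drugs, chosen because they hold CTGGGAA, the letters of the interleukin 6 response element described in rat acute-phase genes. Each is the RefSeq window from 250 bases before to 50 bases after the gene's start in the GRCr8 build, 300 bases read 5′ to 3′ on the gene's strand, with CTGGGAA on that strand in capitals: Lcn2 at chr3:36081731-36082030 (minus strand), Fgg at chr2:170652833-170653132 (plus strand), Fgb at chr2:170700826-170701125 (minus strand) and Kng1 at chr11:91340099-91340398 (minus strand).
Lcn2: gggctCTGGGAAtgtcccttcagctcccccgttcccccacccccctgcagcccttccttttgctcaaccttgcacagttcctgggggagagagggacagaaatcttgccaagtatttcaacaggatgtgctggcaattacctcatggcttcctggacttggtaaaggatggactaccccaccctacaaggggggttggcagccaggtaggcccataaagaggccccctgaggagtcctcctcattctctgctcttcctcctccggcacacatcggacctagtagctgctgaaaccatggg
Fgg: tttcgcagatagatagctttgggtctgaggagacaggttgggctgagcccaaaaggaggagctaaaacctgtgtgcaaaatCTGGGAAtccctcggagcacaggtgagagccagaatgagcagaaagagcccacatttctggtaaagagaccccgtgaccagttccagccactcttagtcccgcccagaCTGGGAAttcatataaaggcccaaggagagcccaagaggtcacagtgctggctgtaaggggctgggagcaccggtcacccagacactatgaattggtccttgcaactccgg
Fgb: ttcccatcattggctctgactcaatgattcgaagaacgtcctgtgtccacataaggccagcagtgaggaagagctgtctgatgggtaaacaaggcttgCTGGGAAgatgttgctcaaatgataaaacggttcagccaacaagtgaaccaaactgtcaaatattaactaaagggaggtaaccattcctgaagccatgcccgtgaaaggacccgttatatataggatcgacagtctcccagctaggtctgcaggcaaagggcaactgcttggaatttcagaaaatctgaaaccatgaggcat
Kng1: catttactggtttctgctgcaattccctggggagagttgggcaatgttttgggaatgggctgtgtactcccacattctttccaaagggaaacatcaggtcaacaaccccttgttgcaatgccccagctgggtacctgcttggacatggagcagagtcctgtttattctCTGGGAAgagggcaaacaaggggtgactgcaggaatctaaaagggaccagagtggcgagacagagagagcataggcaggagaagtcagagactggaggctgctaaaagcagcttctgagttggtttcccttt
Fgg holds CTGGGAA at 2 places and the others at 1. Searched on both strands, these letters occurred in 11.3% of the 33469 promoter windows of the table. By symbol the share was 11.9% of 27457, against 11 of the 50 genes called higher by both drugs that had a window (22%) and 7 of 19 acute-phase genes (36.8%). TTGCNNAA, letters of the kind C/EBP factors bind and likewise searched on both strands, was found in 10.6% of windows, in 11.4% of symbols, in 16 of the 50 (32%) and in 10 of the 19 (52.6%), and stood once in Lcn2, Fgb and Kng1 and not in the Fgg window. A match describes letters in a window and not a bound site. A2m, Hp and Lbp had no entry in the table.

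Of the 13 negative acute-phase genes tested, whose plasma proteins fall in inflammation, naproxen lowered 8 and raised 3 (median -1.21). Nabumetone changed 0 (median -0.18) and, without replicate 1, lowered 4 and raised 3 (median -0.31). Transthyretin (Ttr), the thyroxine carrier, read 699 and 653 CPM after naproxen against 3268 to 5647 CPM (-2.66, SE 0.25, adjusted p = 0.000163). The nabumetone animals read 2585, 1236, 970 and 1365 CPM against 3258, 4931, 3120 and 3523 CPM (-1.27, SE 0.33, adjusted p = 0.0777; without replicate 1 -1.65, adjusted p = 0.00304). Serpina6, which encodes corticosteroid-binding globulin, read 2.47 and 2.11 CPM after naproxen against 284 to 340 CPM (-7.10, SE 0.21, adjusted p = 1.3e-06), and 233, 56.4, 27.3 and 96 CPM after nabumetone against 340 to 459 CPM (-1.86, SE 0.57, adjusted p = 0.107; without replicate 1 -2.65, SE 0.41, adjusted p = 0.00456). Each treated animal lay below its vehicle animals for both genes. Albumin (Alb) fell by 1.31 on the log2 scale after naproxen (46958 and 40204 CPM against 89490 to 121420 CPM). After nabumetone it was not called with or without replicate 1 (adjusted p = 0.449 and 0.082).

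Both drugs together called 85 genes in the same direction, 77 higher and 8 lower. That was 88.5% of the nabumetone calls and 1.74% of the naproxen calls. The count was 11, 21 and 11 without nabumetone replicate 2, 3 or 4, and 3, 12, 3 and 5 without nabumetone vehicle replicate 1, 2, 3 or 4. Without nabumetone replicate 1 the shared set held 1851 genes, 1058 higher and 793 lower, 63.3% of the nabumetone calls of that fit and 37.8% of the naproxen calls. Across the 12656 genes tested in both, the log2 fold changes correlated at Pearson r = 0.654. The points are genes of the same 14 animals, and they are not independent replicates. Each nabumetone animal set against its vehicle mean gave r = 0.2, 0.648, 0.705 and 0.562 for replicates 1 to 4. Of the 4665 naproxen calls tested after nabumetone, 86.5% had the same sign there, against 61.6% of the genes called in neither.

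**Figure D2:**
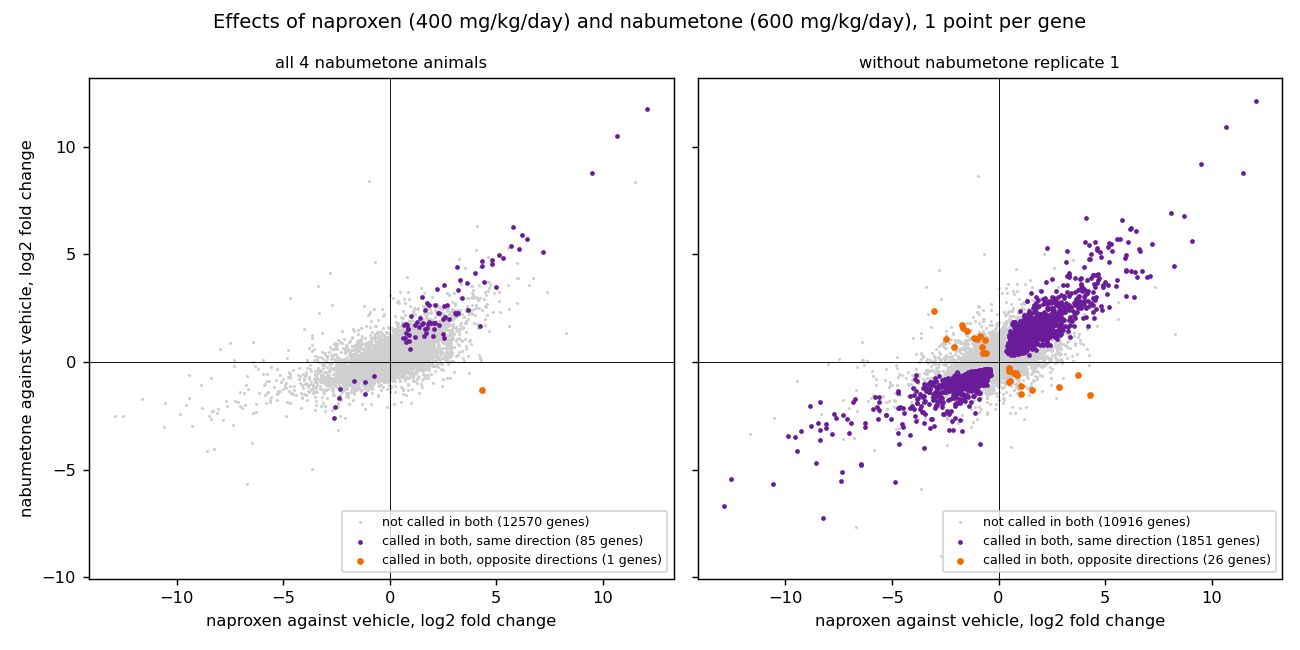
Log2 fold change after naproxen (x axis) and after nabumetone (y axis), 1 point per gene tested in both, with all 4 nabumetone animals (left) and without replicate 1 (right). Of the coloured points on the left, 85 genes are called in both in the same direction and 1 in opposite directions. On the right these counts are 1851 and 26.

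Beside the plasma proteins, the 10 largest shared increases held genes of other kinds. The citrate carrier Slc13a5 read 386 and 420 CPM after naproxen against 1.3 to 3.49 CPM (7.18, SE 0.33, adjusted p = 1.22e-05), and 17.8, 324, 189 and 99.4 CPM after nabumetone against 3.41 to 6.51 CPM (5.13, SE 0.81, adjusted p = 0.0426). Wfdc21, a small secreted protein, rose by 5.77 and 6.28, and Pcolce, which enhances the trimming of procollagen, by 5.11 and 4.99. Pla2g2a, a secreted phospholipase A2 that acts on bacterial membranes, read 15.1 and 11.7 CPM after naproxen and 1.77, 18.6, 22.4 and 21.2 CPM after nabumetone, against at most 1.02 CPM in the 8 vehicle animals. The last 2 were the neutrophil genes S100a8 and S100a9, given with their cell type below. The 6 shared decreases that met the rule for named genes were the cell cycle gene Ccnd1, the biliary sterol transporter Abcg8, the fatty acid elongase Elovl5, the mitochondrial glycerol phosphate dehydrogenase Gpd2, the chromatin remodeller Chd3 and Gulo, the last enzyme of vitamin C synthesis.

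Ccnd1, which encodes cyclin D1, read 6.86 and 5.14 CPM after naproxen against 18.4, 24.7, 32.5 and 72.8 CPM (-2.63, SE 0.65, adjusted p = 0.0219). Nabumetone replicates 1 to 4 read 3.71, 3.47, 8.01 and 8.48 CPM against 52.6, 34.7, 39.4 and 14.5 CPM (-2.58, SE 0.45, adjusted p = 0.0479). Replicate 1 lay inside the range of the other treated animals. The naproxen call ended without either naproxen animal (adjusted p = 0.128 and 0.158). Abcg8 read 16.7, 13.7, 17.6 and 10.4 CPM after nabumetone against 30 to 74.4 CPM (-1.69, SE 0.29, adjusted p = 0.0453) and fell by 2.36 after naproxen. Elovl5 fell by 1.25 after nabumetone and 2.35 after naproxen, Gpd2 by 1.50 and 1.16 (adjusted p = 0.0936 without naproxen replicate 2), Gulo by 0.90 and 1.68, and Chd3 by 0.91 and 1.15. Among increases, the quinone reductase Nqo1 had the same even profile, with 86.3, 88.2, 103 and 83.8 CPM after nabumetone against 26.1 to 37.2 CPM (1.53, SE 0.14, adjusted p = 0.00443) and 112 and 86.8 CPM after naproxen against 19.5 to 53 CPM (1.65, SE 0.39, adjusted p = 0.0157; 0.119 and 0.0635 without naproxen replicate 1 or 2).

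Sned1, which encodes a secreted matrix protein, was the gene called in opposite directions. It read 81.4 and 68.8 CPM after naproxen against 2.5, 3.56, 4.15 and 4.81 CPM (4.31, SE 0.22, adjusted p = 1.33e-05). The nabumetone values were 6.3, 4.68, 3.62 and 3.34 CPM against 9.89, 9.81, 10.2 and 14.3 CPM (-1.29, SE 0.23, adjusted p = 0.0479). The vehicle animals of the nabumetone study all lay above those of the naproxen study for this gene. Without nabumetone replicate 1 there were 26 such genes, among them the aspartate aminotransferase Got1 and the P450 gene Cyp3a62, described with their lists. Of the 96 nabumetone calls, 10 were not called after naproxen, and these are named here because they were so few: AA926063, AABR07040847.1, Asns, C4a, Cav2, Dennd2a, Pfdn6, Ptprr, RT1-Bb and Trpm4. Trpm4, a calcium-activated cation channel, read 22.4, 22.6, 24.9 and 26.7 CPM after nabumetone against 7.2 to 9.92 CPM (1.51, SE 0.13, adjusted p = 0.00443), and 12.5 and 12.5 CPM after naproxen against 7.42 to 11.4 CPM (0.43, SE 0.19, adjusted p = 0.115). RT1-Bb, a class II histocompatibility chain, read 16.8, 22.6, 25.3 and 23 CPM after nabumetone against 5.57 to 7.76 CPM (1.71, SE 0.16, adjusted p = 0.00501), while the naproxen vehicle animals alone ran from 6.61 to 23.3 CPM.

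The largest naproxen increases beyond these included genes that the vehicle livers scarcely expressed. Gucy2c, the receptor guanylate cyclase of the gut hormone guanylin, read 57.1 and 60.1 CPM after naproxen with 1 count among the 4 vehicle animals (adjusted p = 1.13e-06). Nabumetone replicates 1 to 4 read 0.82, 41.7, 54.5 and 7.89 CPM against 0 to 0.144 CPM, an adjusted p of 0.0511, and 0.00128 without replicate 1. Nos2, the inducible nitric oxide synthase, read 9.03 and 28.2 CPM, Scube1 10.9 and 4.11 CPM, Unc93a 10.2 and 10.2 CPM, and Retreg1, a receptor for breakdown of the endoplasmic reticulum, 3.78 and 12 CPM, each with at most 0.171 CPM in a vehicle animal and an adjusted p between 3.07e-05 and 0.000765. Acod1, which makes itaconate in activated macrophages, read 64.4 and 33.2 CPM against 0 to 0.341 CPM (8.70, SE 0.58, adjusted p = 8.18e-05), and Ffar2, a receptor for short-chain fatty acids on leukocytes, read 10.3 and 1.27 CPM against 0 to 0.0648 CPM (adjusted p = 0.00217; with RIN in the fit the log2 fold change was 0.77, adjusted p = 0.909). In the naproxen comparison these 7 genes passed the filter on low counts through the naproxen animals alone, so their calls are a description. Of the 7, Gucy2c and Retreg1 passed that filter in the nabumetone comparison, and Retreg1 was not called there (adjusted p = 0.146).

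The largest naproxen decreases were genes of hepatocyte metabolism and secretion. Inmt, which methylates tryptamine, had 0 counts in both naproxen animals and 8.3, 39.3, 72.5 and 79.4 CPM in the vehicle animals, at least 330-fold lower against a floor of 3 counts per library (adjusted p = 0.0173; 0.0706 within 1 flow cell; 0.0849 and 0.0802 without naproxen replicate 1 or 2). Serpina3c read 1.41 and 2.16 CPM against 4865, 5336, 5908 and 6788 CPM (-11.64, SE 0.36, adjusted p = 1.3e-06), the lowest naproxen level as a share of vehicle among genes with counts in both groups that met the naming rule. Carbonic anhydrase 3 (Car3) read 0.908 and 0.294 CPM against 545 to 1611 CPM (-10.53, SE 0.91, adjusted p = 0.000326), and the major urinary protein Mup4 1.82 and 0.392 CPM against 203 to 439 CPM (-8.11, SE 0.73, adjusted p = 0.000371). The hydrogen peroxide-forming oxidase Nox4, the aldehyde oxidase Aox3 and the calcium-binding protein genes Cabp2 and Cib2 had at most 0.151 CPM in a naproxen animal against 36.5 to 53.7, 12.1 to 34.5, 36.8 to 57.7 and 4.67 to 15.3 CPM. The sulfotransferase Sult1c2 read 0.403 and 0 CPM against 20.4 to 103 CPM, and was not called without naproxen replicate 2 (adjusted p = 0.0504).

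In the nabumetone animals these genes lay between the vehicle level and the naproxen level or among the vehicle animals, and 0 of them was called with all 4 animals. Serpina3c read 4038, 156, 35.2 and 1088 CPM against 4955, 5750, 4882 and 1736 CPM (-1.70, SE 1.16, adjusted p = 0.39; 0.0711 without replicate 1), so that 1 vehicle animal lay below replicate 1. Inmt read 41.2, 0.101, 0.452 and 1.2 CPM against 29.3 to 114 CPM (adjusted p = 0.287), and was called without replicate 1 (-6.69, adjusted p = 0.00214). Nox4, Cabp2, Cib2, Aox3, Mup4 and Sult1c2 were also called lower without replicate 1, at log2 fold changes from -4.70 (Cib2) to -1.88 (Aox3), and Car3 was not (adjusted p = 0.0981).

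Prostanoid and leukotriene genes encode the drugs' targets and the enzymes and receptors around them. Some members, such as Ptgs2 and Ptger4 after naproxen, passed the filter on low counts through the treated animals alone. The counts of calls are therefore a description. Of 26 prostanoid and leukotriene genes tested after naproxen, 11 were called higher and 3 lower (median 0.40). Of 22 tested after nabumetone, 1 was higher and 0 lower (median 0.43), and of 23 without replicate 1, 9 were higher and 2 lower (median 0.55). Ptgs2, the inducible cyclooxygenase, read 1.71 and 2.16 CPM after naproxen against 0.0594, 0.0648, 0.114 and 0.221 CPM (3.92, SE 0.50, adjusted p = 0.000747) and was too low to be tested after nabumetone. Ptgs1, the constitutive cyclooxygenase, was not called after naproxen (0.09, SE 0.21, adjusted p = 0.752). After nabumetone it read 27.4, 43, 30.8 and 67.8 CPM against 23.7, 23.7, 19.7 and 20.8 CPM, with no overlap (0.94, SE 0.27, adjusted p = 0.0914; 0.0166 without replicate 1). With all 4 nabumetone animals the single call of this list was Pla2g2a, so Tbxas1, Lta4h and Pla2g4a were not called there. Thromboxane synthase (Tbxas1) rose by 1.68 after naproxen and by 1.99 after nabumetone without replicate 1, the animal singled out by its response, and leukotriene A4 hydrolase (Lta4h) by 0.88 and 0.97. The arachidonate-releasing phospholipase Pla2g4a rose by 0.91 and 0.99, the first not called within 1 flow cell (adjusted p = 0.0716) or without naproxen replicate 1 (adjusted p = 0.0751).

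Prostaglandin E2 receptors differed in direction among themselves. Ptger3, the receptor that hepatocytes of the rat are known to carry, read 1.46 and 1.18 CPM after naproxen against 27.4, 28.9, 30.7 and 31.2 CPM (-4.48, SE 0.19, adjusted p = 5.48e-06). After nabumetone it read 20.7, 5.39, 4.65 and 4.89 CPM against 19.3, 34.8, 18.4 and 15.7 CPM (-1.30, SE 0.52, adjusted p = 0.173; without replicate 1 -2.15, SE 0.29, adjusted p = 0.00254). Replicates 2 to 4 lay below all vehicle animals and replicate 1 lay among them. Ptger2 and Ptger4 rose after naproxen, to 3.23 and 3.09 CPM and to 2.57 and 1.52 CPM from at most 0.682 and 0.238 CPM (3.23, SE 0.50, and 3.36, SE 0.44), and Ptger1 was not called (0.44, SE 0.26). The breakdown enzyme Ptgr1 fell by 3.29 after naproxen, to 2.47 and 5.05 CPM from 29.1 to 41 CPM, and was called after nabumetone without replicate 1 (-1.26, adjusted p = 0.0196). The prostaglandin carrier Slco2a1 fell by 2.41 after naproxen (adjusted p = 0.0352; 0.13 within 1 flow cell; 0.0611 to 0.0667 without naproxen replicate 1 or vehicle replicate 2, 3 or 4) and read 388, 607, 296 and 529 CPM after nabumetone against 266 to 540 CPM.

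Cytokine and chemokine genes carry the signals by which inflamed tissue recruits and activates leukocytes. Some members, such as Cxcl2, passed the filter on low counts through the treated animals alone, so the counts of calls are a description. Of 26 tested after naproxen, 16 were called higher and 4 lower (median 1.74). After nabumetone 1 of 19 was higher, Osmr, and 0 lower (median 0.62), and without replicate 1 9 of 20 were higher and 2 lower (median 0.68). Il1b, which encodes interleukin 1 beta, read 45.1 and 54.5 CPM after naproxen against 1.84, 2.07, 2.5 and 3.44 CPM (4.32, SE 0.23, adjusted p = 1.4e-05), and 2.46, 10.2, 21.1 and 4.79 CPM after nabumetone against 3.26, 1.63, 1.12 and 1.09 CPM (2.42, SE 0.67, adjusted p = 0.0887; without replicate 1 2.73, SE 0.56, adjusted p = 0.0135). The neutrophil attractant Cxcl1 read 86.6 and 52.1 CPM after naproxen against 0.778 to 2.44 CPM (5.54, SE 0.37, adjusted p = 7.69e-05), and 2.63, 15.1, 172 and 44 CPM after nabumetone against 0.912 to 2.19 CPM (5.31, SE 1.19, adjusted p = 0.0674; without replicate 1 5.69, SE 0.86, adjusted p = 0.00452). All treated animals lay above the vehicle animals for Cxcl1, with the nabumetone animals spread over a wider range. Cxcl2 read 1.76 and 4.56 CPM after naproxen and 0 in all 4 vehicle animals. Cxcl12, a chemokine made by resting liver, fell from 224 to 388 CPM to 43.8 and 29.2 CPM after naproxen (-3.05, SE 0.29, adjusted p = 0.000177), and by 0.93 after nabumetone without replicate 1 (adjusted p = 0.0179).

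Summed levels of neutrophil and of macrophage markers were higher in every treated animal than in its vehicle animals. Lymphocyte markers did not follow, with a median log2 fold change of -1.86 after naproxen and -0.13 after nabumetone. Among erythroid markers 0 were called in either comparison. In bulk liver RNA, more cells of a type and more RNA per cell cannot be told apart. Of 18 neutrophil markers, 7 passed the filter on low counts after naproxen and 6 after nabumetone. No marker was above 0.972 CPM in any vehicle animal, so a marker could pass through the treated animals alone, and no count of calls is given. The summed level of all 18 markers was 42.5 and 80.2 CPM after naproxen against 2.16 to 3.5 CPM, and 7.98, 42.5, 54.5 and 44.5 CPM after nabumetone against 1.49 to 2.09 CPM. S100a8 and S100a9, which form calprotectin, rose by 6.46 and 6.21 after naproxen and by 5.73 and 5.90 after nabumetone. Of the granule genes that define neutrophils, Ltf had 0 counts in every animal, as did the receptor gene Cxcr1. Elane had 3 counts in the naproxen animals together and 19 in the nabumetone animals, and the highest level of any of the 11 markers not tested in either comparison was 2.58 CPM, of Mpo.

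Of 14 macrophage and Kupffer cell markers, naproxen raised 12 and lowered 1 (median 1.23), and nabumetone raised 2 (median 0.98), or 11 without replicate 1 (median 1.11) and 0 without any one of the other animals. Their summed level was 2023 and 2282 CPM after naproxen against 671.9 to 1003 CPM, and 1077, 1684, 1322 and 2215 CPM after nabumetone against 727.4 to 835.1 CPM. The summed level of the 16 hepatocyte markers was 70710 and 73590 CPM after naproxen against 118000 to 157000 CPM. After nabumetone it was 150300, 99260, 93210 and 110700 CPM against 134300 to 162500 CPM, so that replicate 1 lay among its vehicle animals. Albumin, given above, made up most of these sums in the naproxen animals and their vehicle animals. By gene, the median log2 fold change was -0.07 after naproxen (0.06 within 1 flow cell). It was -0.60 after nabumetone and -0.67 without replicate 1. Of the 16, 5 were called lower and 1 higher after naproxen, and 7 lower and 0 higher after nabumetone without replicate 1. Endothelial markers (6 of 11 higher, 1 lower) and stellate cell and matrix genes (7 of 14 higher, 3 lower) were called so after naproxen (3 endothelial genes higher within 1 flow cell and 2 without naproxen replicate 2; 1 matrix gene lower within 1 flow cell or without naproxen replicate 1), and 5 of 11 and 10 of 14 were higher after nabumetone without replicate 1. Of 8 lymphocyte markers, 1 was higher and 3 lower after naproxen, and 0 higher and 1 lower after nabumetone without replicate 1. Over all genes tested, naproxen called 18.8% higher and 18.4% lower, and nabumetone without replicate 1 called 12.9% higher and 9.61% lower. The matrix genes lower and the lymphocyte marker higher after naproxen lay near these shares, as did the lymphocyte marker lower after nabumetone. The part that cell makeup has in any gene group below was not tested.

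**Figure D3:**
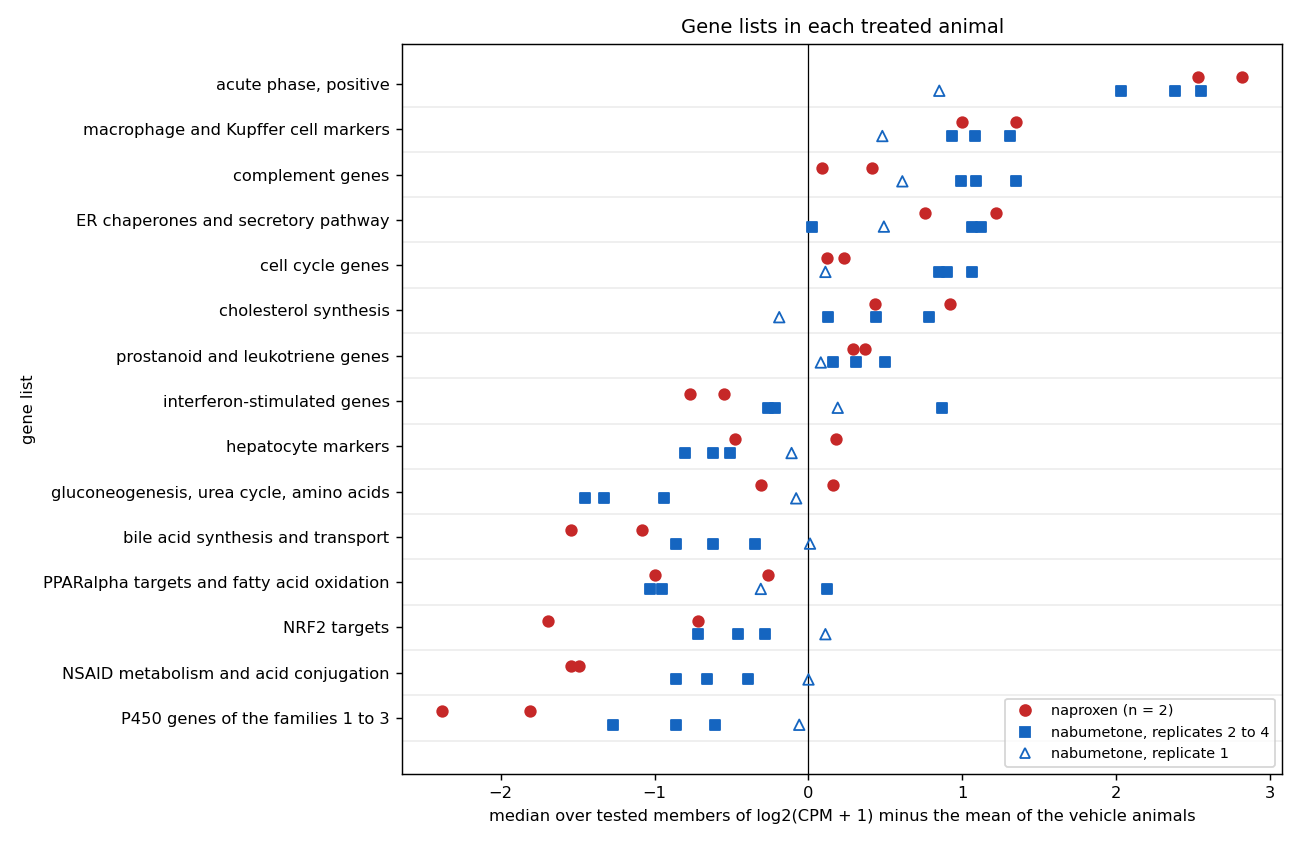
Median over the tested members of each gene list of log2(CPM + 1) minus the mean of the vehicle animals, 1 point per treated animal: naproxen (circles), nabumetone replicates 2 to 4 (squares) and nabumetone replicate 1 (open triangle). For the acute-phase list the points are 2.82 and 2.53 for naproxen and 0.85, 2.38, 2.55 and 2.03 for nabumetone replicates 1 to 4. For cell cycle genes and for gluconeogenesis, urea cycle and amino acid genes, nabumetone replicates 2 to 4 lie farther from 0 than both naproxen animals.

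Genes that process drugs fell after naproxen. Of 31 P450 genes of families 1 to 3, 25 were called lower and 2 higher (median -2.06). Over all genes tested the shares were 18.4% lower and 18.8% higher after naproxen, and 9.61% and 12.9% after nabumetone without replicate 1. Nabumetone changed 0 of 30 (median -0.70) and, without replicate 1, 14 of 31 were lower and 4 higher (median -1.10), of which 16 shared the direction of a naproxen call. Cyp2c11, the main P450 of male rat liver, read 0.504 and 1.42 CPM after naproxen against 976, 1238, 1861 and 1957 CPM (-10.60, SE 0.64, adjusted p = 4.9e-05). After nabumetone it read 442, 10.9, 5.95 and 43.4 CPM against 1029, 1648, 1000 and 348 CPM (adjusted p = 0.191; without replicate 1 -5.64, SE 0.93, adjusted p = 0.00629). Replicate 1 lay above the lowest vehicle animal and the other 3 far below it. Cyp2e1, which oxidises small solvents and paracetamol, read 483 and 764 CPM after naproxen against 4929 to 6540 CPM (-3.23, SE 0.26, adjusted p = 8.06e-05), and 4037, 555, 520 and 1434 CPM after nabumetone against 5545 to 10470 CPM (-2.07, SE 0.67, adjusted p = 0.119; without replicate 1 -3.04, SE 0.47, adjusted p = 0.00434).

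Some P450 genes ran against the rest. Cyp1a1, the classic target of the aryl hydrocarbon receptor, read 3.43 and 42.8 CPM after naproxen against 0.227, 0.574, 1.94 and 2.79 CPM, a call that the second animal carried (4.09, SE 1.16, adjusted p = 0.0402; 0.0779 within 1 flow cell; 0.398 without naproxen replicate 2 and 0.0836, 0.0752 and 0.0946 without vehicle replicate 1, 2 or 4). Nabumetone replicates 1 to 4 read 2.98, 44.3, 103 and 132 CPM against 0.096, 1.43, 0.102 and 1.88 CPM (6.30, SE 1.25, adjusted p = 0.0568; without replicate 1 6.68, SE 0.82, adjusted p = 0.0023). All treated animals lay above their vehicle animals. Its relative Cyp1b1 rose to 18.5 and 12.1 CPM after naproxen from at most 0.353 CPM (6.39, SE 0.42, adjusted p = 3.3e-05). In that comparison Cyp1b1 passed the filter on low counts through the naproxen animals alone. Cyp1a2 was not called after naproxen (0.11, SE 0.18) or nabumetone (0.96, SE 0.28, adjusted p = 0.0963). Cyp3a62 read 5.75 and 5.24 CPM after naproxen against 12.8 to 22 CPM (-1.69, SE 0.26, adjusted p = 0.00165), and 28.5, 39.5, 23.7 and 57.7 CPM after nabumetone against 14.6, 14, 16.2 and 9.7 CPM (1.45, SE 0.29, adjusted p = 0.0555; without replicate 1 1.56, SE 0.30, adjusted p = 0.0103). Cyp2b2 read 2.77 and 0.637 CPM after naproxen against 90.6 to 180 CPM (-6.40, SE 0.66, adjusted p = 0.000696), and 68.4, 25.4, 151 and 111 CPM after nabumetone against 71 to 124 CPM (-0.02, SE 0.46, adjusted p = 0.987). Reads may be shared between Cyp2b1 and Cyp2b2 and among the Cyp3a genes, which are near-identical in parts.

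The enzymes and carriers that could handle the 2 drugs themselves followed the P450 genes. Of 27 genes of NSAID oxidation, reduction, acid conjugation and transport, naproxen lowered 17 and raised 2 (median -1.41). Nabumetone changed 0 (median -0.41), or lowered 9 and raised 1 without replicate 1 (median -0.70). The shares over all genes tested were those given with the P450 genes. Glyat, which joins acyl groups to glycine, read 2.22 and 2.4 CPM after naproxen against 202, 235, 245 and 270 CPM (-6.68, SE 0.22, adjusted p = 1.98e-06), and 269, 65.6, 22.2 and 164 CPM after nabumetone against 171, 238, 192 and 227 CPM, which was not called with or without replicate 1 (adjusted p = 0.526 and 0.149). The glucuronosyltransferase Ugt2b10 read 13 and 21.7 CPM after naproxen against 308 to 342 CPM (-4.24, SE 0.25, adjusted p = 2.29e-05), and 270, 202, 112 and 230 CPM after nabumetone against 170 to 333 CPM (-0.28, SE 0.30, adjusted p = 0.596). For both genes the nabumetone animals overlapped their vehicle animals. The flavin monooxygenase Fmo1 fell by 6.28 after naproxen, to 0.908 and 2.5 CPM from 112 to 157 CPM, and by 2.81 after nabumetone without replicate 1 (adjusted p = 0.00259). The carboxylesterase Ces1d fell by 6.43 after naproxen, to 9.03 and 3.09 CPM from 405 to 590 CPM. After nabumetone Ces1d read 507, 10.2, 16.8 and 57.4 CPM against 669 to 864 CPM (-2.38, adjusted p = 0.222; without replicate 1 -4.77, SE 0.65, adjusted p = 0.0031).

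The carbonyl reductases Cbr1 and Cbr3, which reduce ketones such as nabumetone, stood at 0.475 to 2.45 CPM in the nabumetone animals and were not called in either comparison. The flavin monooxygenase Fmo5, known to act on ketones in humans, was higher after naproxen (445 and 468 CPM against 233 to 308 CPM, 0.82, SE 0.15, adjusted p = 0.00434) and not called after nabumetone (305, 171, 342 and 317 CPM against 263 to 306 CPM). Amacr, the racemase that acts on arylpropionic acids bound to coenzyme A, was called in neither (-0.11, SE 0.16, and -0.41, SE 0.35). The acyl-coenzyme A ligase Acsl1 read 340 and 605 CPM after naproxen against 2395 to 2840 CPM (-2.45, SE 0.25, adjusted p = 0.000278), and fell by 0.98 after nabumetone without replicate 1 (adjusted p = 0.0127). The biliary exporter Abcc2 fell by 2.93 and, without replicate 1, by 1.15, and the uptake carrier Slco1b2 by 2.65 and 0.84.

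**Figure D4:**
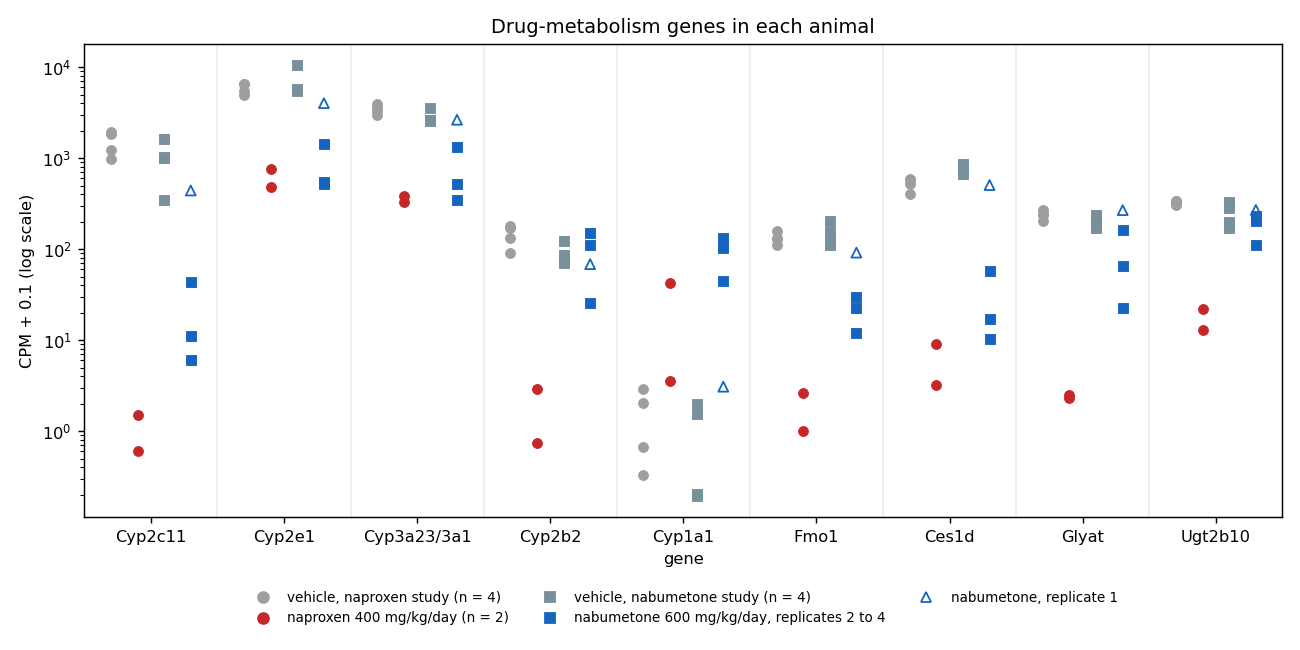
CPM + 0.1 on a log axis in each animal for 9 drug-metabolism genes, with symbols as in the acute-phase plot. The naproxen animals lie below all their vehicle animals except for Cyp1a1, where they lie above, and for Cyp2c11, Cyp2e1, Fmo1 and Ces1d nabumetone replicates 2 to 4 lie between the vehicle animals and the naproxen animals or near the latter.

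The CAR, PXR, PPARalpha and NRF2 lists, each defined by a nuclear receptor or stress factor, had more calls lower than higher after naproxen. Over all genes tested, naproxen called 18.4% lower and 18.8% higher. Nabumetone without replicate 1 called 9.61% lower and 12.9% higher. Naproxen lowered 6 of 12 CAR targets, 6 of 8 PXR targets, 13 of 33 PPARalpha targets and fatty acid oxidation genes and 14 of 27 NRF2 targets, and raised 0, 0, 0 and 3 (medians -2.12, -2.62, -0.84 and -1.41). Nabumetone without replicate 1 lowered 1, 4, 4 and 6 and raised 0, 1, 0 and 3 (medians -0.21, -1.01, -0.50 and -0.57). The CAR and PPARalpha counts lower and the PXR and NRF2 counts higher in that fit lay near its shares over all genes. With all 4 nabumetone animals Nqo1 was the single call in these lists. The glutathione synthesis genes Gclc and Gclm fell by 3.39 and 3.47 after naproxen, to 14.9 to 16.2 CPM and 9.28 to 12.9 CPM from 107 to 210 CPM and 75.4 to 164 CPM, and were not called after nabumetone with or without replicate 1. The haem oxygenase Hmox1, on the NRF2 list and also known as a macrophage gene, read 147 and 89.8 CPM after naproxen against 25 to 48.2 CPM (1.85, SE 0.30, adjusted p = 0.00285), and 34, 72.3, 88.3 and 128 CPM after nabumetone against 20.1 to 31.5 CPM (1.60, SE 0.35, adjusted p = 0.0667; without replicate 1 1.84, adjusted p = 0.00185). Of 7 aryl hydrocarbon receptor targets naproxen raised 4 and lowered 0 (2 higher within 1 flow cell and 1 without naproxen replicate 2), and nabumetone raised 1 of 6, Nqo1, or 3 of 7 without replicate 1.

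Chaperone genes of the endoplasmic reticulum, where secreted proteins fold, rose after naproxen in 18 of 24 cases with 0 lower (median 0.99). After nabumetone 0 of 24 were called (median 0.79), and 4 were higher without replicate 1 (median 0.82). Over all genes tested, 18.8% were higher after naproxen and 12.9% after nabumetone without replicate 1. Hspa5, the main chaperone of this compartment, read 2509 and 1016 CPM after naproxen against 498 to 651 CPM (1.62, SE 0.31, adjusted p = 0.00588), and 1084, 1268, 1601 and 517 CPM after nabumetone against 910, 644, 786 and 400 CPM (0.71, SE 0.37, adjusted p = 0.265). Here replicate 4 and not replicate 1 was the low nabumetone animal: the list median stood at 0.49, 1.12, 1.06 and 0.02 in replicates 1 to 4. Sdf2l1, a cofactor of Hspa5, rose by 2.61 after naproxen and by 1.93 after nabumetone without replicate 1 (adjusted p = 0.0156). Cytosolic heat shock genes did not follow: 0 of 13 were higher and 6 lower after naproxen, and 0 of 12 higher and 2 lower after nabumetone without replicate 1. Of 19 ATF4 targets, 3 were higher and 1 lower after naproxen, against 18.8% higher and 18.4% lower among all genes tested. The count higher was 0 within 1 flow cell and 1 without vehicle replicate 3. Nabumetone raised 1 of 19, asparagine synthetase (Asns), which read 6.08, 23.7, 13.4 and 14.6 CPM against 2.3, 3.06, 3.07 and 1.05 CPM (2.61, SE 0.46, adjusted p = 0.0479).

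Complement genes, a plasma defence system made by hepatocytes, were a list in which as many members rose after nabumetone as after naproxen. Of 22 tested, nabumetone raised 8 and lowered 0 (median 1.04; without replicate 1, 17 higher and 2 lower, median 1.17), and naproxen raised 8 and lowered 3 (median 0.34). Over all genes tested, nabumetone called 0.672% higher, and naproxen 18.8% higher and 18.4% lower. The nabumetone calls fell to 2 without nabumetone replicate 3, 1 without vehicle replicate 2 and 0 without any one of replicates 2 and 4 or the other vehicle animals. C9, a part of the membrane attack complex, read 3995 and 3101 CPM after naproxen against 930 to 1223 CPM (1.75, SE 0.17, adjusted p = 0.000181), and 1929, 6012, 6185 and 6156 CPM after nabumetone against 712, 1053, 681 and 590 CPM (2.74, SE 0.40, adjusted p = 0.031). The protease C1s read 555 and 843 CPM after naproxen against 346 to 524 CPM (0.66, SE 0.22, adjusted p = 0.0424; 0.0796 within 1 flow cell; 0.291 without naproxen replicate 2 and 0.0786, 0.0794 and 0.0855 without vehicle replicate 1, 2 or 4), and 784, 1274, 1193 and 1730 CPM after nabumetone against 313 to 551 CPM (1.71, SE 0.29, adjusted p = 0.0447). C4b rose by 1.86 and 2.67. C4a read 156, 128, 115 and 189 CPM after nabumetone against 39.7 to 73.4 CPM (1.59, SE 0.25, adjusted p = 0.0385) and was not called after naproxen (76.3 and 94.1 CPM against 44.3 to 118 CPM, 0.12, SE 0.34, adjusted p = 0.81). C4a and C4b are near-identical, and reads may be shared between them. Of 19 coagulation genes, naproxen raised 5 and lowered 6, against 18.8% higher and 18.4% lower among all genes tested, and nabumetone raised 4, the 3 fibrinogen chains and Kng1, of which 1 or 0 was called when an animal other than replicate 1 was left out.

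Gluconeogenesis, the urea cycle and amino acid breakdown are the pathways by which the liver turns protein into glucose and urea. Of 27 genes, 0 were called with all 4 nabumetone animals (median -0.75). Without replicate 1, the animal singled out by its response, 19 were lower and 0 higher (median -1.16). Each fit that left out another animal of that comparison called at most 3 genes lower over all genes tested. Naproxen lowered 6 and raised 3 (median -0.02), against 18.4% lower and 18.8% higher among all genes tested. Bhmt, which remethylates homocysteine, read 2640, 375, 79.6 and 238 CPM after nabumetone against 3031, 3014, 3927 and 2859 CPM (-1.94, SE 0.93, adjusted p = 0.233; without replicate 1 -3.81, SE 0.52, adjusted p = 0.00298), and 523 and 794 CPM after naproxen against 1086 to 1440 CPM (-0.87, SE 0.21, adjusted p = 0.0143; 0.0808 within 1 flow cell; 0.0793 without naproxen replicate 1). Serine dehydratase (Sds) read 326, 8.26, 9.82 and 25.3 CPM after nabumetone against 150, 363, 207 and 169 CPM (without replicate 1 -3.95, SE 0.54, adjusted p = 0.00334), and 41 and 438 CPM after naproxen against 56.4 to 298 CPM, which overlapped. The urea cycle enzyme Ass1 read 2103, 611, 408 and 799 CPM after nabumetone against 2042 to 2905 CPM (without replicate 1 -1.94, SE 0.27, adjusted p = 0.00301) and was not called after naproxen (-0.13, SE 0.28, adjusted p = 0.751). In these 3 genes nabumetone replicate 1 lay at or near the vehicle level.

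Got1, the cytosolic aspartate aminotransferase, was higher after naproxen, with 728 and 1635 CPM against 113, 131, 139 and 282 CPM (2.83, SE 0.45, adjusted p = 0.00331). After nabumetone it read 266, 74.9, 169 and 106 CPM against 301, 220, 310 and 200 CPM and was not called (-0.74, SE 0.37, adjusted p = 0.248). It was called lower there without replicate 1 (-1.16, SE 0.29, adjusted p = 0.0259), and the difference between the drugs was not tested. The alanine aminotransferase Gpt read 232, 78.3, 41.8 and 36.2 CPM after nabumetone against 237 to 382 CPM (without replicate 1 -2.43, SE 0.32, adjusted p = 0.00254) and was not called after naproxen (-0.54, SE 0.18, adjusted p = 0.0506). Tat, the glucocorticoid-responsive tyrosine aminotransferase, was higher after naproxen (3616 and 3916 CPM against 713 to 2523 CPM, 1.35, SE 0.43, adjusted p = 0.0459; 0.0915 to 0.189 without naproxen replicate 1 or 2 or vehicle replicate 1 or 3) and not called after nabumetone (-0.69, SE 0.29, adjusted p = 0.191). Of 15 glucocorticoid-responsive genes naproxen raised 7 (4 without replicate 1) and lowered 1, among them the cell cycle inhibitor Cdkn1a (43.1 and 29.3 CPM against 1.5 to 7.05 CPM, 3.03, SE 0.50, adjusted p = 0.00433), which read 26.8, 22.9, 19.3 and 4.59 CPM after nabumetone against 5.41 to 70.5 CPM (adjusted p = 0.741). Nabumetone raised 1 of the 15, Lcn2, or 2 without replicate 1, with 1 lower.

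Of 29 cell cycle genes, the single call with all 4 nabumetone animals was Ccnd1, which was lower (median 1.18). Without replicate 1, the animal singled out by its response, 22 were higher and 1 lower, Ccnd1 (median 1.40). Fits that left out another animal of that comparison called 6 to 26 genes over all genes tested. Naproxen raised 5 and lowered 1 (median 0.39), against 18.8% higher and 18.4% lower among all genes tested. Mki67, the proliferation marker, read 4.7, 12.6, 15.9 and 18.5 CPM after nabumetone against 4.08, 4.95, 5.83 and 4.5 CPM (1.42, SE 0.37, adjusted p = 0.0781; without replicate 1 1.68, SE 0.18, adjusted p = 0.00105), and 2.62 and 4.8 CPM after naproxen against 1.41 to 3.56 CPM (0.54, SE 0.39, adjusted p = 0.306). Top2a, a topoisomerase of dividing cells, read 3.06, 10.2, 13.2 and 11.4 CPM against 1.36 to 3.98 CPM (without replicate 1 2.06, adjusted p = 0.00404). Mcm5, a subunit of the replicative helicase, read 0.647, 3.37, 9.63 and 6.69 CPM against 0.131 to 1.07 CPM (without replicate 1 3.30, SE 0.58, adjusted p = 0.00723) and was not called after naproxen (0.89, SE 0.44, adjusted p = 0.147). Replicate 1 lay within the vehicle range for these 3 genes and replicates 2 to 4 above it.

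Calls of lipid, bile acid and iron genes are to be read beside the shares over all genes tested. These shares were 37.2% after naproxen, 0.75% after nabumetone and 22.5% without nabumetone replicate 1. Naproxen lowered 13 of 19 bile acid synthesis and transport genes and raised 1 (median -1.35), and nabumetone changed 0 (median -0.41), or lowered 6 and raised 1 without replicate 1. The bile acid uptake carrier Slc10a1 read 54.6 and 104 CPM after naproxen against 809 to 929 CPM (-3.42, SE 0.29, adjusted p = 9.73e-05), and 613, 289, 159 and 414 CPM after nabumetone against 590 to 908 CPM (-0.98, SE 0.37, adjusted p = 0.155; without replicate 1 -1.35, adjusted p = 0.0221). The exception was the oxysterol hydroxylase Cyp7b1, which rose to 22.7 and 14.8 CPM after naproxen from 1.84 to 3.05 CPM (2.86, SE 0.25, adjusted p = 0.000112) and was called after nabumetone without replicate 1 (2.48, adjusted p = 0.0035). Cyp7a1, the first enzyme of bile acid synthesis, was called in neither. Of 25 cholesterol synthesis genes 8 were higher and 3 lower after naproxen (1 lower without replicate 1), and 9 higher and 1 lower after nabumetone without replicate 1. Squalene epoxidase (Sqle) read 74.6 and 73.6 CPM after naproxen against 4.33 to 12.8 CPM (2.85, SE 0.38, adjusted p = 0.0015) and 4.27, 27.4, 59.8 and 25.1 CPM after nabumetone against 5.2 to 9.17 CPM (without replicate 1 2.37, adjusted p = 0.00341).

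Among 19 iron genes naproxen raised 9 and lowered 4 and nabumetone raised 4, or 10 with 3 lower without replicate 1. Without nabumetone replicate 2, 3 or 4 the nabumetone increases were 1, 2 and 1, and without any one vehicle animal 0. The zinc and iron importer Slc39a14 read 1179 and 864 CPM after naproxen against 177 to 225 CPM (2.32, SE 0.17, adjusted p = 5.54e-05), and 240, 559, 616 and 479 CPM after nabumetone against 184 to 249 CPM (1.05, SE 0.28, adjusted p = 0.0798; without replicate 1 1.25, adjusted p = 0.0021). Hepcidin (Hamp), the iron hormone that interleukin 6 is known to raise, did not rise with the other acute-phase genes. It read 6.6, 1.76, 2.39 and 0.599 CPM after nabumetone against 97.3, 8.07, 116 and 145 CPM, with no overlap (-4.99, SE 0.96, adjusted p = 0.0541; without replicate 1 -5.89, SE 1.07, adjusted p = 0.00892). After naproxen it read 6.61 and 1.71 CPM against 0.908, 5.74, 33.8 and 168 CPM (-3.65, SE 2.16, adjusted p = 0.241). The naproxen vehicle animals alone spanned the treated values.

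Naproxen and lumiracoxib were the pair of NSAIDs at 1 dose and duration, and theirs was the single pair of drugs tested against each other. RIN ran from 8.5 to 8.7 in the lumiracoxib animals and from 7.5 to 8.5 in their vehicle animals. The TMM scaling factor of lumiracoxib replicate 2 was 0.789. The libraries of the 2 studies shared no flow cell, and lumiracoxib replicates 2 and 3 shared none with their vehicle animals. Lumiracoxib is a phenylacetic acid related to diclofenac and selective for the inducible cyclooxygenase, and lacks the naphthalene ring. It changed 2465 of 12875 genes against its vehicle (19.1%), 1356 higher (10.5%) and 1109 lower (8.61%). The naproxen effect differed from the lumiracoxib effect in 22 of 13528 genes (0.163%), 8 higher (0.0591%) and 14 lower (0.103%), with 1398 at an unadjusted p under 0.05. DESeq2 called 240. Without lumiracoxib replicate 2 the count was 147. It was 6 without naproxen replicate 2, 4, 7, 6 and 10 without naproxen vehicle replicate 1, 2, 3 or 4, and 8, 4 and 6 without lumiracoxib vehicle replicate 2, 3 or 4. No acute-phase gene of the list was among the 22. For Lcn2 the difference of log2 fold changes, naproxen minus lumiracoxib, was 0.45 (95% interval -0.65 to 1.56, adjusted p = 0.832), for Kng1 0.37 (-0.39 to 1.12, adjusted p = 0.784) and for A2m 0.16 (-1.80 to 2.11, adjusted p = 0.981). For Ptgs2 it was 0.24 (-2.10 to 2.57, adjusted p = 0.975). These intervals, and not the p-values, bound how far the 2 drugs could differ.

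The 5 largest differences toward lower values after naproxen were drug-metabolism and secreted-protein genes. Serpina3c read 615, 394 and 248 CPM after lumiracoxib against 3285 to 6311 CPM, and its effects differed by -8.11 (SE 0.55, interval -9.31 to -6.91, adjusted p = 3.6e-05). Cyp2b2 read 374, 50.9 and 222 CPM after lumiracoxib against 70.4 to 141 CPM, which was not called (0.88, SE 0.56, adjusted p = 0.287), and the difference was -7.27 (SE 1.04, interval -9.53 to -5.00, adjusted p = 0.024). The differences for Cyp2c11, Ugt2b10 and Glyat were -5.90, -4.53 and -3.96 (adjusted p = 0.0194, 0.00216 and 0.0472). Cyp2c11 and Glyat were also called lower after lumiracoxib, and Ugt2b10 was not (0.31, SE 0.33, adjusted p = 0.518). Toward higher values after naproxen, the ubiquitin ligase Mib1 differed by 2.19, the collagen-binding integrin Itga1 by 2.10, the bicarbonate transporter Slc4a4 by 2.08, complement C7 by 1.78 and Ncf1, a subunit of the phagocyte oxidase, by 1.50, with adjusted p from 0.0179 to 0.0472. Of these 10 differences, Serpina3c and Ugt2b10 were called whichever animal was left out, and the other 8 were not called in at least 1 such fit. From the RefSeq gene table the differences for Slc4a4 and Itga1 were 0.12 and 0.59, and 6 of the 10 were not called. For Mib1 and Slc4a4 the vehicle animals of the 2 studies themselves differed, with means of 2.38 and 9.43 CPM and of 5.6 and 27 CPM in the naproxen and lumiracoxib studies.

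**Figure D5:**
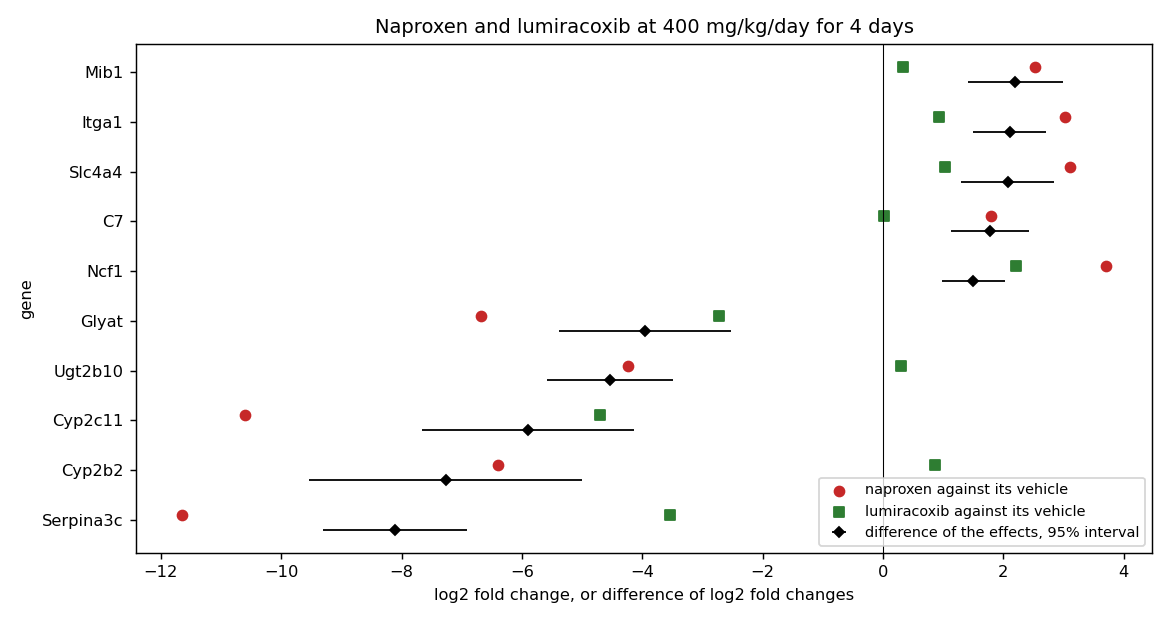
Log2 fold change against its own vehicle after naproxen (circles) and lumiracoxib (squares), both 400 mg/kg/day for 4 days, and the difference of the effects (diamonds, bars are 95% intervals) for the 5 genes per direction named by the rule. Differences run from -8.11 for Serpina3c to 2.19 for Mib1. The 10 genes were chosen by a call in this same test, so their intervals lie away from 0 by that choice.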

How the data were processed

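Liver RNA-seq libraries were deposited by the authors in 2 tables (Ensembl and RefSeq genes) of expected counts, estimates that need not be whole and are not normalized. The build is Rnor_6.0 per the submitters' processing notes, and the aligner is not given in the sources used here. Values were rounded, the combined Ugt1a row was dropped, and a symbol on several rows was taken from the row with most counts. Near-identical genes (Cyp2b, Cyp3a, Gsta, Ugt1a, kininogens, Mup4, C4a and C4b) are uncertain. Each comparison used filterByExpr, TMM scaling and a robust, 2-sided quasi-likelihood F test in edgeR 4.0.16 (limma 3.58.1, R 4.3.3), adjusted by Benjamini-Hochberg over all genes tested, with a threshold of 0.05. The fits were checked on simulated data. Fold changes are log2, CPM use TMM library sizes, and intervals are 95%. DESeq2 1.42.0, RLE scaling, no filter, the RefSeq table, RIN as a covariate, wider fits and leaving out each animal were tried. Flow cells were read from the deposited metadata.

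Named genes were members of 37 lists (734 entries, 685 found under their symbol, 5 under an older one and 38 not found) and, per comparison, the 10 largest called changes per direction (5 against lumiracoxib) with a mean of at least 5 CPM in the higher group and, within a study, no overlap between groups. The drugs and lists were chosen with earlier results of these data known. The genes called after nabumetone alone were named after their values were seen. Replicate numbers follow accession order. Promoters are from RefSeq (GRCr8). Plots used Python 3.11.15 and matplotlib 3.10.9.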

Additional observations from a re-analysis of the deposited data

Results flagged for a closer look

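A test of the highest and lowest animal (Dixon's test at its 95% critical value) was run on 401 groups of 4 animals, over the genes named in the text and 3 library measures, and marked 38. Chance marks about 1 in 20 such groups where values are normally distributed, and values of 1 animal across genes are not independent. CPM were tested without a log, so that rate need not hold here. A group with counts in 1 animal alone is always marked, as for Gucy2c, Scube1, Unc93a, Nos2 and Retreg1. Of the 11 marks among the nabumetone animals, 9 were of replicate 1 and the other two of replicates 3 and 4. Replicate 1 was the highest for Bhmt (2640 CPM, the others 79.6 to 375), Ces1d (507 CPM, 10.2 to 57.4), Cyp2c11 (442 CPM, 5.95 to 43.4), Inmt (41.2 CPM, 0.101 to 1.2), Pfdn6 (17.6 CPM, 13.3 to 14), Ptger3 (20.7 CPM, 4.65 to 5.39) and Sds (326 CPM, 8.26 to 25.3). It was the lowest for C9 (1929 CPM, 6012 to 6185) and Cp (3943 CPM, 9680 to 10616). Replicate 4 was the highest for Ptger1 (4.49 CPM, 2.26 to 2.62) and replicate 3 for the bicarbonate transporter Slc4a4 (89.3 CPM, 28.3 to 36.2).

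Vehicle animals of the nabumetone study were marked in 13 genes. Replicate 2 was the highest for C1s (551 CPM, the others 313 to 335), C4a (73.4 CPM, 39.7 to 41), Car3 (1700 CPM, 297 to 323), Fads1 (324 CPM, 128 to 148) and Serpina6 (459 CPM, 340 to 356), and the lowest for Cbr1 (0.868 CPM, 2.4 to 2.66). Replicate 3 was the highest for Bhmt (3927 CPM, 2859 to 3031) and Cdkn1a (70.5 CPM, 5.41 to 15.5). Replicate 4 was the highest for Cyp2e1 (10470 CPM, 5545 to 5790), Gpt (382 CPM, 237 to 251), Retreg1 (0.918 CPM, the others 0) and Sned1 (14.3 CPM, 9.81 to 10.2), and the lowest for Sdf2l1 (15.6 CPM, 25.9 to 27.5).

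Vehicle animals of the naproxen study were marked in 12 genes and for RIN, where replicate 3 stood at 6.7 and the others at 8.2 to 8.3. Replicate 3 was also the highest for Got1 (282 CPM, 113 to 139). Replicate 1 was the highest for Gpd2 (12.6 CPM, 7.01 to 7.9) and Ptprr (0.853 CPM, 0 to 0.132), replicate 4 for C7 (8.96 CPM, 6.29 to 6.71) and replicate 2 for S100a9 (0.972 CPM, 0.0883 to 0.171). Replicate 2 was the lowest for Pla2g4a (3.7 CPM, 4.95 to 5.12) and replicate 4 for Sqle (4.33 CPM, 11.7 to 12.8). Gucy2c and Scube1 (0.0441 CPM each) and Unc93a (0.0883 CPM) had counts in replicate 4 alone, and Nos2 (0.114 CPM) and Retreg1 (0.171 CPM) in replicate 1 alone. In the lumiracoxib study, vehicle replicate 2 was the lowest for Itga1 (4.42 CPM, 5.86 to 6.07).

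At the matched dose, the effects of naproxen and lumiracoxib were found to differ by the test of the difference in the 10 named genes. Naproxen minus lumiracoxib, on the log2 scale, was -8.11 for Serpina3c (95% interval -9.31 to -6.91), -7.27 for Cyp2b2 (-9.53 to -5.00), -5.90 for Cyp2c11 (-7.67 to -4.14), -4.53 for Ugt2b10 (-5.58 to -3.49) and -3.96 for Glyat (-5.39 to -2.52). It was 2.19 for Mib1 (1.41 to 2.98), 2.10 for Itga1 (1.50 to 2.71), 2.08 for Slc4a4 (1.30 to 2.85), 1.78 for C7 (1.12 to 2.43) and 1.50 for Ncf1 (0.97 to 2.03).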

How the results depend on the processing

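The naproxen count of 4892 fell to 2895 with an absolute log2 fold change of at least 1, 3151 with RIN in the fit and 2896 within 1 flow cell (chosen after seeing the data), and ran from 3601 to 4347 with each animal left out. The nabumetone count of 96 became 1562 by DESeq2, 1340 in 1 fit of 4 groups, 247 from the RefSeq table and 24 with RIN in the fit, and ran from 6 to 2922 with each animal left out. The same settings moved the shared count of 85 to 1088, 950, 198 and 16, and leaving out animals gave 3 to 1851. The naproxen minus lumiracoxib count of 22 became 240 by DESeq2, 10 from the RefSeq table and 11 with RIN in the fit, and ran from 4 to 147. The cause of these shifts was not tested. RLE scaling and no filter on low counts kept all 4 counts within 1.5 times. No direction of a named gene turned where either value was called. Of 107 named naproxen calls, 92 held with each animal left out, while RIN in the fit ended 9 and the flow cell 7. No paired analysis was possible because replicate numbers were given in accession order and the groups hold separate animals. With 2 naproxen animals, leaving 1 out assumes that the other varies like the vehicle animals, and genes near 1 CPM rest on few counts.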

Other observations

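Of 17 genes of fatty acid and triglyceride synthesis, naproxen raised 3 and lowered 9, and the calls higher fell to 0 without naproxen replicate 2. Nabumetone lowered 1, Elovl5 (median log2 fold change -0.08), or raised 3 and lowered 5 without replicate 1 (median -0.19). Fads2 and Fads1, the desaturases that turn linoleic acid into arachidonic acid, the substrate of the cyclooxygenases, fell together after naproxen. Fads2 read 5.6 and 5.88 CPM against 233, 255, 273 and 356 CPM (-5.60, SE 0.25, adjusted p = 8.05e-06), and Fads1 11.1 and 18.8 CPM against 226, 230, 269 and 333 CPM (-4.14, SE 0.30, adjusted p = 5.67e-05). In nabumetone replicates 1 to 4 Fads2 read 112, 25.3, 63.1 and 72 CPM against 231, 331, 245 and 176 CPM (-1.85, SE 0.41, adjusted p = 0.0661; without replicate 1 -2.21, adjusted p = 0.0074). Every treated animal lay below its vehicle animals for both genes, nabumetone replicate 1 included. Fatty acid synthase (Fasn) was higher after naproxen, with 57.5 and 76.4 CPM against 19.9 to 40 CPM (1.28, SE 0.29, adjusted p = 0.0132; 0.097 without naproxen replicate 2) and 34.6, 64.2, 86.3 and 64.1 CPM after nabumetone against 15.9 to 30.1 CPM (1.37, SE 0.29, adjusted p = 0.0593).

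Growth hormone signalling, which sets the sex pattern of rat liver genes, was represented by 15 genes. Of these, 2 were higher and 4 lower after naproxen, which called 18.8% higher and 18.4% lower over all genes tested, and 0 were called after nabumetone (2 higher and 2 lower without replicate 1). Igfals, which stabilises circulating IGF1, read 2.87 and 0.882 CPM after naproxen against 108, 213, 226 and 249 CPM (-6.73, SE 0.65, adjusted p = 0.000464), and 151, 19.8, 47.5 and 68 CPM after nabumetone against 73.5 to 189 CPM (-1.05, SE 0.56, adjusted p = 0.272). The growth hormone receptor Ghr fell by 1.46 after naproxen (adjusted p = 0.000355). Naproxen lowered 5 of 8 male-predominant and 6 of 8 female-predominant genes and raised 0 and 1. Nabumetone raised 1 of the 8 female-predominant genes, Abcg1, a cholesterol exporter also expressed by macrophages, which read 24.4, 25.2, 34.1 and 27.5 CPM against 8.43 to 10.4 CPM (1.59, SE 0.14, adjusted p = 0.00443) and rose by 1.77 after naproxen.

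Interferon-stimulated genes had more calls lower than higher after naproxen, which called 18.8% higher and 18.4% lower over all genes tested. Of 20, naproxen raised 2 and lowered 7 (median -0.86; 0 and 5 without naproxen replicate 1, 4 and 4 without replicate 2) and nabumetone changed 0 (median 0.19). The antiviral GTPase Mx2 read 0.252 and 0.637 CPM after naproxen against 10.3 to 40.4 CPM (-5.42, SE 0.92, adjusted p = 0.0053; 0.0673 without naproxen replicate 1). The next counts stand against the naproxen shares over all genes of 18.8% higher and 18.4% lower, and nothing is read from them. Of 17 clock genes 2 were higher and 5 lower after naproxen (0 and 1 without replicate 1), and 0 of 16 were called after nabumetone. Of 12 p53 targets 5 were higher and 2 lower after naproxen (2 higher without replicate 1 and 3 without replicate 2), and 0 after nabumetone. Of the erythroid markers 0 of 5 were called after naproxen and 0 of 7 after nabumetone, and of the cholangiocyte markers 2 of 7 were higher and 2 lower after naproxen and 0 of 5 called after nabumetone. Without nabumetone replicate 1, 2 interferon-stimulated genes, 1 clock gene, 2 erythroid markers and 1 of 7 cholangiocyte markers were called higher after nabumetone. In that fit 1 p53 target was higher and 1 lower.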
